A study of Fragaria vesca with 24 samples.

Results

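FvH4_2g15440 is annotated as aquaporin PIP2-7-like in Fragaria vesca, the woodland strawberry, and lies in a quantitative trait locus (QTL) interval for freezing tolerance on Fvb2. It was chosen by its identifier, as 1 of the 34006 gene rows deposited, together with all 5 of its isoform rows among 64597. The study had already listed it as a candidate, through an isoform, from these same samples, so its values here are no independent evidence. The plants were 2 clonally propagated parents of a mapping population, the freezing-susceptible ‘NCGR1363’ and the freezing-tolerant ‘Alta’. For each parent, crowns (the compressed stem with the growing points) and leaves were taken after 42 d at 2 °C, and from untreated plants grown at 20 °C (0 h), giving the groups ‘NCGR1363’ crown 42 d, ‘NCGR1363’ crown 0 h, ‘Alta’ crown 42 d, ‘Alta’ crown 0 h, ‘NCGR1363’ leaf 42 d, ‘NCGR1363’ leaf 0 h, ‘Alta’ leaf 42 d and ‘Alta’ leaf 0 h. Each of these 8 groups had 3 biological replicates, 24 strand-specific libraries in all. Each parent is a single genotype. No plants of 42 d without cold were among the samples, and by the study's methods the day was also shorter during cold treatment than during growth, so cold, day length and plant age cannot be told apart in any comparison of 42 d with 0 h. The libraries are of whole tissue, in which fewer cells of a type and less RNA per cell cannot be told apart either.

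Aquaporins are membrane channel proteins that let water pass along an osmotic gradient. The plasma membrane intrinsic proteins (PIPs) are the plant class that sits in the outer cell membrane, and the PIP2 group is known for high water permeability. PIP proteins assemble as tetramers, are opened and closed by phosphorylation, calcium and pH, and their transcripts are known to respond to drought, salt and cold in many plants. PIP genes form a family of similar sequences, so reads of this gene could be shared with other PIP genes, and how far they were was not tested. No sequence of the gene is shown, since no genome with these identifiers was used here.

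Library totals were between 12818719 and 18487934 expected counts. The library labelled ‘Alta’ crown 42 d replicate 3 stood apart from its group. Across genes, its log2 CPM had a Pearson's r of 0.710 and 0.728 with the other 2 libraries of the group, which had an r of 0.977 with each other, and a mean r of 0.980 with the ‘Alta’ leaf libraries at 0 h. All 6 chloroplast genes used as leaf markers were higher in it than in both other libraries of its label, and their summed level was 2319 CPM in it, 27.3 and 39.5 CPM in those libraries and 2272 to 2404 CPM in ‘Alta’ leaves at 0 h. Marker by marker the match was looser. Against ‘Alta’ leaves at 0 h, FvH4_2g16010 lay within their range (134 CPM, against 121 to 154 CPM). FvH4_2g14190 lay above it (269 CPM, against 61.2 to 95.9 CPM). Below it lay FvH4_2g12490 (797, against 849 to 941 CPM) and FvH4_2g14900 (926, against 965 to 1070 CPM). So did FvH4_2g11590 (94.3, against 101 to 109 CPM) and FvH4_2g14791 (98.7, against 102 to 104 CPM). The library was therefore left out of the fits, which leaves ‘Alta’ crowns at 42 d with 2 libraries, and its value is given apart. Replicates are biological by the study's account, and p-values measure the spread between these libraries.

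The annotation gives the gene 5 isoforms, t1 to t5, whose coding lengths follow from the positions in their names. The coding sequence of t1 was 846 nucleotides (282 codons with the stop), that of t3 777 nucleotides, that of t2 714 nucleotides, and those of t4 and t5 624 nucleotides each. All 5 lengths were multiples of 3, and t2, t3, t4 and t5 were 44, 23, 74 and 74 codons shorter than t1. The coding sequence began after 171 bases in t1 and after 92 or 93 bases in the other 4 isoforms. Reads that match several isoforms were divided among them by RSEM, so isoform values carry more error than gene values, and shares of counts are not corrected for transcript length. Over 23 libraries, t1 held 70.7 to 95.7% of the gene's isoform counts (median 85.3%), t2 0 to 11.2% (median 6.17%), t3 0.775 to 7.65% (median 3.18%), t4 1.26 to 9.40% (median 3.50%) and t5 0.161 to 1.77% (median 0.957%). The gene row equalled the sum of its isoform rows in 16 libraries and differed from it by 1 count in the other 8.

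Gene-level transcript accumulation is given as CPM, a library's count relative to its total, scaled with TMM over the 24 libraries. In crowns, ‘NCGR1363’ had 128, 116 and 119 CPM at 42 d, against 132, 138 and 121 CPM at 0 h. ‘Alta’ crowns had 82.0 and 129 CPM at 42 d, against 437, 494 and 451 CPM at 0 h. The ‘Alta’ crowns at 0 h thus lay above every other library of crowns, and the 42 d libraries of both parents overlapped. In leaves, ‘NCGR1363’ had 265, 437 and 275 CPM at 42 d, against 315, 361 and 319.5 CPM at 0 h. ‘Alta’ leaves had 230.0, 412 and 433 CPM at 42 d, against 397, 394 and 353 CPM at 0 h. All 4 leaf groups overlapped, and the leaf libraries at 42 d spread more widely than those at 0 h. The library set apart had 287 CPM, between the values of the group it is labelled with and those of ‘Alta’ leaves at 0 h.

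**Figure D1:**
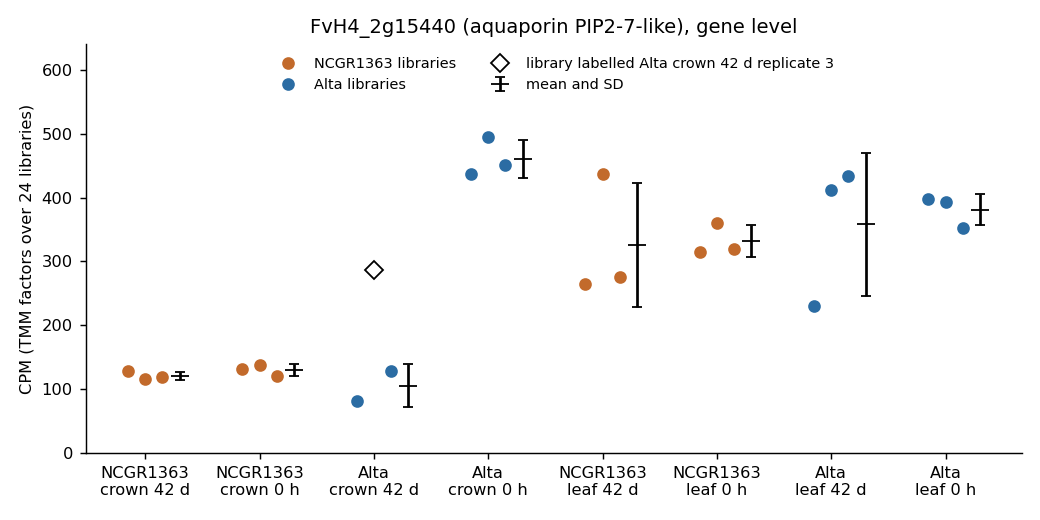
Level of FvH4_2g15440 in each library (CPM, linear axis), by parent, tissue and time, with the mean and SD of each group beside its points (n = 3, and n = 2 for ‘Alta’ crowns at 42 d). The 3 ‘Alta’ crown libraries at 0 h lie between 437 and 494 CPM, and the open diamond is the library set apart, which is in no mean.

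Ordered by their means, the groups were ‘Alta’ crowns at 0 h (461 ± 29.7 CPM, SD, n = 3), ‘Alta’ leaves at 0 h (381 ± 24.8), ‘Alta’ leaves at 42 d (358 ± 112), ‘NCGR1363’ leaves at 0 h (332 ± 25.4), ‘NCGR1363’ leaves at 42 d (326 ± 96.6), ‘NCGR1363’ crowns at 0 h (130.3 ± 8.73), ‘NCGR1363’ crowns at 42 d (121 ± 6.50) and ‘Alta’ crowns at 42 d (106 ± 33.5, n = 2). The highest mean was 4.36 times the lowest. The order falls into a high range of 5 groups, the crowns of ‘Alta’ at 0 h and all leaves, and a low range of 3 crown groups, with no library of one range inside the other. Neighbours in the order within the low range, and within the leaves, had overlapping libraries. The first 2 groups of the order, ‘Alta’ crowns and leaves at 0 h, did not overlap, and their difference just missed the threshold of the test given below for crowns and leaves.

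At 42 d of cold the transcript was lower in the crowns of ‘Alta’, while no change was called in those of ‘NCGR1363’. Values of log2 fold change are 42 d over 0 h, and a difference was called at a false discovery rate (FDR, the adjusted p over all rows tested) of at most 0.05 in edgeR's legacy quasi-likelihood test, which every call refers to unless another test is named. In ‘Alta’ crowns the gene fell by 2.12 on the log2 scale (SE 0.21, 95% interval -2.64 to -1.60, edgeR FDR = 0.000488), which is 4.34-fold lower at 42 d. In ‘NCGR1363’ crowns the log2 fold change was -0.11 ± 0.07 (SE, interval -0.27 to 0.05, edgeR FDR = 0.225), and the libraries of 42 d and 0 h overlapped. Large parts of the transcriptome moved in the same comparisons, with 57.7% of the genes tested called in ‘Alta’ crowns and 58.9% in ‘NCGR1363’ crowns. The ‘Alta’ call held with each of the 5 libraries left out in turn (log2 fold change -2.46 to -1.82). In 2 of these fits, and in every other fit without replicate 1 or 2 of ‘Alta’ crowns at 42 d, that group is a single library assumed to vary like the others, so they are a weak check. With the library labelled ‘Alta’ crown 42 d replicate 3 kept under its label, the log2 fold change was -1.46 and the call was lost (edgeR FDR = 0.143). In that fit 7.67% of all genes were called. The summed leaf markers were 27.3 and 39.5 CPM in ‘Alta’ crowns at 42 d and 42.1 to 47.9 CPM at 0 h, and 40.4 to 46.4 CPM in ‘NCGR1363’ crowns at 42 d and 33.2 to 36.0 CPM at 0 h. The part of residual leaf tissue in the crown values was not tested.

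All 5 isoforms fell in ‘Alta’ crowns, where 28.5% of all isoform rows tested were called. The full-length t1 had 65.0 and 97.1 CPM at 42 d, against 369, 403 and 377 CPM at 0 h (log2 fold change -2.20 ± 0.20, edgeR FDR = 0.00245). The second most abundant isoform, t2, had 5.95 and 11.2 CPM at 42 d, against 48.1, 53.3 and 48.8 CPM at 0 h (log2 fold change -2.49 ± 0.29, edgeR FDR = 0.00451). The t3 isoform had 2.26 and 6.83 CPM at 42 d, against 19.1, 25.1 and 20.4 CPM at 0 h (log2 fold change -2.19 ± 0.49, edgeR FDR = 0.0283). For each of these isoforms every library at 42 d lay below every library at 0 h. The log2 fold changes of t4 and t5 were -1.41 ± 0.35 and -2.45 ± 0.65 (edgeR FDR = 0.0389 and 0.0462). The calls of t1 and t2 held with each library left out, but in 1 fit over the libraries of all 8 groups those of t2 and t4 were lost (edgeR FDR = 0.0616 and 0.0568). The call of t3 was lost without replicate 1, 2 or 3 of ‘Alta’ crowns at 0 h (edgeR FDR = 0.0692, 0.0790 and 0.0720). The calls of t4 and t5 were lost without any one of the same libraries (edgeR FDR = 0.0626 to 0.0849 for t4 and 0.0751 to 0.116 for t5) or without ‘Alta’ crown 42 d replicate 1 (edgeR FDR = 0.111 and 0.0604). With the library labelled ‘Alta’ crown 42 d replicate 3 kept, none of the 5 was called (edgeR FDR = 0.112 to 0.248), in a fit that called 1.89% of isoform rows.

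In ‘NCGR1363’ crowns none of the 5 isoforms was called by edgeR, where 26.7% of isoform rows were, none had an unadjusted p under 0.05, and the DESeq2 Wald test called 0. The log2 fold changes lay between -0.53 (t3) and 0.59 (t4). The t1 isoform had 119, 105 and 110 CPM at 42 d, against 129, 139 and 110 CPM at 0 h. The t3 isoform had 1.13, 2.39 and 2.25 CPM at 42 d, against 2.39, 3.50 and 2.55 CPM at 0 h. The groups of t1 overlapped, while those of t3 met at 2.39 CPM without overlap. Without ‘NCGR1363’ crown 0 h replicate 2, t4 was called (log2 fold change 1.14, edgeR FDR = 0.0424).

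In leaves the gene total was not called in either parent. The log2 fold change was -0.02 ± 0.20 in ‘NCGR1363’ leaves (interval -0.51 to 0.47, edgeR FDR = 0.957) and -0.09 ± 0.22 in ‘Alta’ leaves (interval -0.60 to 0.43, edgeR FDR = 0.756). Of all genes tested, 31.4% were called in ‘NCGR1363’ leaves and 55.8% in ‘Alta’ leaves. The direction turned without ‘Alta’ leaf 42 d replicate 1 in ‘Alta’ (0.18), and without ‘NCGR1363’ leaf 0 h replicate 2 or leaf 42 d replicate 1 or 3 in ‘NCGR1363’ (0.04, 0.10 and 0.08), each time without a call. The summed leaf markers were 1084, 2227 and 1330 CPM in ‘NCGR1363’ leaves at 42 d, where the library with the highest marker sum, replicate 2, also had the highest level of the gene (437 CPM). They were 2513 to 2572 CPM in ‘NCGR1363’ leaves at 0 h. In ‘Alta’ leaves they were 844 to 945 CPM at 42 d and 2272 to 2404 CPM at 0 h. The part of these markers in the spread of the gene was not tested.

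While the total was not called, 2 of the shorter isoforms rose in ‘Alta’ leaves. The t3 isoform had 16.7, 27.7 and 19.3 CPM at 42 d, against 6.45, 5.46 and 2.64 CPM at 0 h, with no overlap (log2 fold change 2.12 ± 0.38, interval 1.20 to 3.04, edgeR FDR = 0.00997). The t4 isoform had 20.6, 28.5 and 22.9 CPM at 42 d, against 8.13, 7.45 and 4.77 CPM at 0 h, also with no overlap (log2 fold change 1.81 ± 0.26, interval 1.19 to 2.43, edgeR FDR = 0.00415). Both calls held with each of the 6 libraries left out. The t2 isoform had 24.6, 39.4 and 36.2 CPM at 42 d, against 19.6, 9.04 and 2.90 CPM at 0 h, and its groups did not overlap, but its log2 fold change of 1.66 ± 0.62 missed the threshold (edgeR FDR = 0.105). It passed without ‘Alta’ leaf 0 h replicate 1 (log2 fold change 2.48, edgeR FDR = 0.0315), with edgeR's newer quasi-likelihood method (FDR = 0.0479) and with DESeq2 (FDR = 0.0291). The t1 isoform had 155, 298 and 333 CPM at 42 d, against 358, 365 and 326 CPM at 0 h (log2 fold change -0.42 ± 0.28, edgeR FDR = 0.320). Of all 36143 isoform rows tested in ‘Alta’ leaves, 25.5% were called, 4462 of them higher and 4766 lower. With only 5 isoforms, 2 rises cannot be set apart from these shares.

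In ‘NCGR1363’ leaves the call of t2 depended on the test, and no other isoform was called. The legacy edgeR test called none of the 5, where it called 13% of isoform rows, and t2 had an unadjusted p under 0.05. The t2 isoform was called by edgeR's newer method (log2 fold change 3.16, FDR = 0.0209), by 1 edgeR fit over all 8 groups (3.19, FDR = 0.0103) and by DESeq2 (FDR = 0.0346). The t2 isoform had 21.7, 16.8 and 21.2 CPM at 42 d, against 4.19, 0 and 2.37 CPM at 0 h, with no overlap. Its log2 fold change was 3.20 ± 1.12 (interval 0.48 to 5.93, edgeR FDR = 0.121). Replicate 2 at 0 h had a count of 0, and without that library the isoform was called (log2 fold change 2.62, edgeR FDR = 0.0386). That 0 among 4648 counts of the gene allows a share of up to 0.0645%, for counting error only. The t3 isoform had 10.1, 17.2 and 9.53 CPM at 42 d, against 6.92, 13.7 and 9.97 CPM at 0 h, and its groups overlapped (log2 fold change 0.29 ± 0.34, edgeR FDR = 0.646). The t4 isoform had 11.8, 26.6 and 11.0 CPM at 42 d, against 4.06, 11.9 and 11.0 CPM at 0 h, likewise with overlap (log2 fold change 0.90 ± 0.51, edgeR FDR = 0.306).

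**Figure D2:**
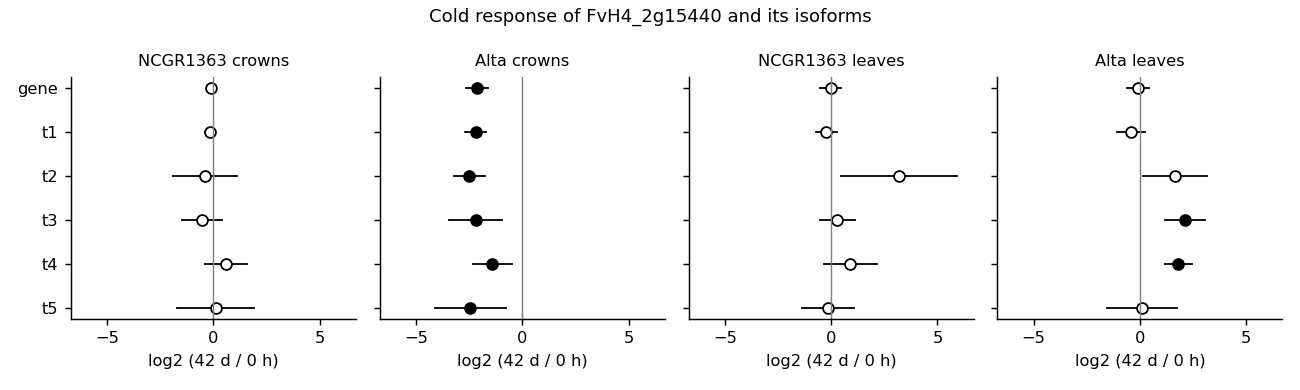
Log2 fold change of 42 d over 0 h for the gene and its isoforms t1 to t5 in the 4 kinds of tissue. Points are edgeR estimates, lines 95% intervals, and filled points passed an FDR of 0.05. All 6 values pass below 0 in ‘Alta’ crowns, and t3 and t4 pass above 0 in ‘Alta’ leaves (2.12 and 1.81).

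The summed share of the isoforms other than t1 was higher at 42 d than at 0 h in the leaves of both parents. In ‘NCGR1363’ leaves, t2 to t5 together held 18.0, 15.7 and 16.9% of the gene's isoform counts at 42 d, against 6.49, 7.98 and 8.13% at 0 h. In ‘Alta’ leaves they held 29.3, 25.3 and 19.5% at 42 d, against 8.95, 6.66 and 4.25% at 0 h. In both parents every leaf library at 42 d lay above every leaf library at 0 h. In crowns no such separation was seen. Crowns of ‘NCGR1363’ held 10.8, 11.1 and 9.77% at 42 d, against 9.81, 7.23 and 14.7% at 0 h. Those of ‘Alta’ held 16.9 and 22.0% at 42 d, against 18.9, 21.2 and 19.2% at 0 h. The library set apart held 12.5%, above ‘Alta’ leaves at 0 h and below the other ‘Alta’ crowns.

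Isoform usage was tested as the log2 change of an isoform relative to that of its whole gene, the isoform itself included. The usage of t1 itself was not called in leaves of ‘NCGR1363’ (-0.15) or of ‘Alta’ (-0.29), with an edgeR FDR of 1.00 in both. Because t1 makes up most of the gene's counts, its usage can move little, so this test could hardly show a fall. The mean share of t1 was 83.1% at 42 d and 92.5% at 0 h in ‘NCGR1363’ leaves. It was 75.3% at 42 d and 93.4% at 0 h in ‘Alta’ leaves. In ‘Alta’ leaves the usage of t2 rose by 1.79 (edgeR FDR = 0.0368) and that of t3 by 2.25 (edgeR FDR = 0.0493), while t4 missed the threshold (1.94, edgeR FDR = 0.0638). Of all isoforms tested for usage in ‘Alta’ leaves 2.2% were called. In ‘NCGR1363’ leaves the usage of t2 rose by 3.27 (edgeR FDR = 0.0185), where 1.44% were called. In crowns no isoform of the gene was called for usage by edgeR under cold, in ‘NCGR1363’ (3.84% of all isoforms called) or ‘Alta’ (2.43%), and none had an unadjusted p under 0.05. The leaf calls were near the threshold, and on simulated data the usage test made more false calls than its threshold allows, so these calls are weak. With libraries left out in turn, the ‘Alta’ t2 call held without leaf 0 h replicate 1, and was lost without leaf 0 h replicate 2 or 3 or leaf 42 d replicate 1, 2 or 3 (edgeR FDR = 0.0613 to 0.2003). The ‘Alta’ t3 call was lost without leaf 0 h replicate 2 or leaf 42 d replicate 1, 2 or 3 (edgeR FDR = 0.0954 to 0.235). The ‘NCGR1363’ t2 call was lost without leaf 0 h replicate 3 or leaf 42 d replicate 1 or 3 (edgeR FDR = 0.114 to 0.148). A difference in usage between the parents' responses was not tested.

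**Figure D3:**
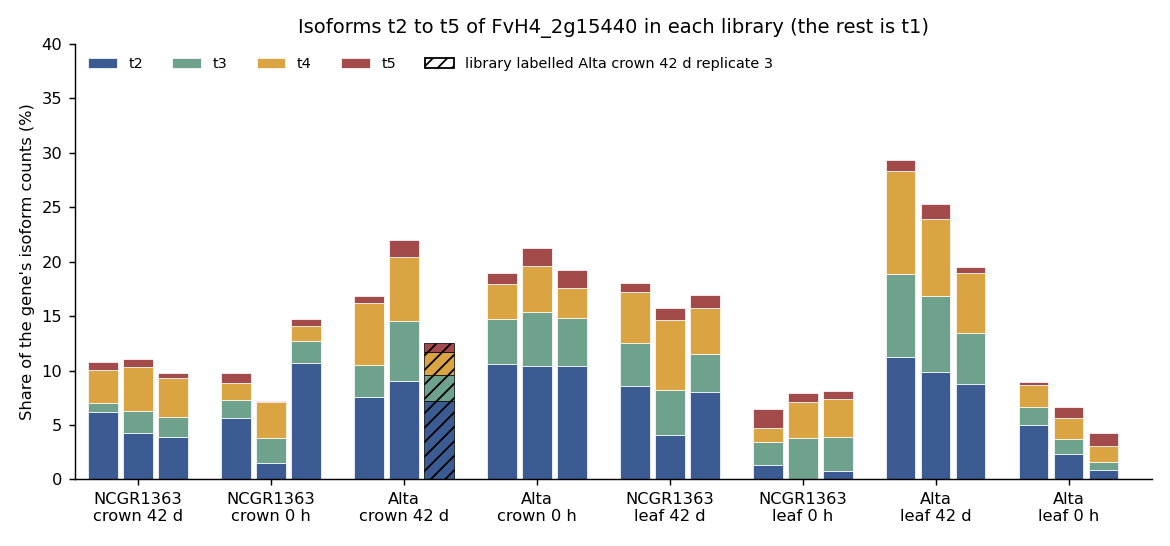
Share of the isoform counts of FvH4_2g15440 held by t2, t3, t4 and t5 (percent, stacked) in each library, by group, with replicates 1 to 3 from left to right. The stacks of leaves at 42 d reach 15.7 to 29.3% and those of leaves at 0 h 4.25 to 8.95%, and the hatched bar is the library labelled ‘Alta’ crown 42 d replicate 3.

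Between the parents, a difference of the gene was called in crowns before treatment and in none of the 3 other comparisons. Values of log2 fold difference are ‘NCGR1363’ over ‘Alta’. In crowns at 0 h the gene had 132, 138 and 121 CPM in ‘NCGR1363’, against 437, 494 and 451 CPM in ‘Alta’, a log2 fold difference of -1.83 ± 0.07 (interval -1.99 to -1.68, edgeR FDR = 1.79e-08), or 3.57-fold lower. At this time 63.2% of all genes tested in crowns were called. In crowns at 42 d the log2 fold difference was 0.19 ± 0.19 (interval -0.27 to 0.65, edgeR FDR = 0.447), in a comparison that called 49.9% of genes. It was 0.54 and called without ‘Alta’ crown 42 d replicate 2 (edgeR FDR = 0.0105), -0.11 without replicate 1, and -0.48 with the library labelled replicate 3 kept (edgeR FDR = 0.576), so its direction rested on single libraries. In leaves the log2 fold difference was -0.19 ± 0.09 at 0 h (edgeR FDR = 0.187) and -0.20 ± 0.30 at 42 d (edgeR FDR = 0.684), where 18.7 and 15.2% of genes were called.

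All 5 isoforms were lower in ‘NCGR1363’ than in ‘Alta’ crowns at 0 h, where 30.1% of isoform rows were called. The t3 isoform had 2.39, 3.50 and 2.55 CPM in ‘NCGR1363’, against 19.1, 25.1 and 20.4 CPM in ‘Alta’ (log2 fold difference -2.98 ± 0.20, edgeR FDR = 0.000198). For t1 the log2 fold difference was -1.65 ± 0.09 (edgeR FDR = 0.000112), and those of t2, t4 and t5 were -2.68, -2.51 and -3.19 (edgeR FDR = 0.0136, 0.00632 and 0.0106). Each of the 5 calls held with every library left out in turn. The shorter isoforms together held 9.81, 7.23 and 14.7% in ‘NCGR1363’ crowns at 0 h, against 18.9, 21.2 and 19.2% in ‘Alta’ crowns, with no overlap. No single isoform passed the usage test there (t2 -0.87, edgeR FDR = 0.227, and t3 -1.17, edgeR FDR = 0.488), where 3.13% of isoforms did and 2 of the 5 had an unadjusted p under 0.05. The usage call of t2 appeared without ‘NCGR1363’ crown 0 h replicate 3 (-1.56, edgeR FDR = 0.0106), and that of t3 without replicate 2 (-1.30, edgeR FDR = 0.0333).

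No isoform was called between the parents by the legacy edgeR test in crowns at 42 d (19.1% of isoform rows called), leaves at 0 h (4.61%) or leaves at 42 d (3.58%). Of the 5 isoforms, 0, 2 and 2 had an unadjusted p under 0.05 in these 3 comparisons, and DESeq2 called 0, 1 (t1, FDR = 0.0491) and 1 (t2, FDR = 0.0429). In leaves at 0 h, t3 had 6.92, 13.7 and 9.97 CPM in ‘NCGR1363’, against 6.45, 5.46 and 2.64 CPM in ‘Alta’ (log2 fold difference 1.05 ± 0.41, edgeR FDR = 0.232). In leaves at 42 d, t3 had 10.1, 17.2 and 9.53 CPM in ‘NCGR1363’, against 16.7, 27.7 and 19.3 CPM in ‘Alta’ (log2 fold difference -0.80 ± 0.32, edgeR FDR = 0.243). The ‘NCGR1363’ libraries lay above those of ‘Alta’ at 0 h, while at 42 d the ranges overlapped with the ‘Alta’ libraries mostly higher. Usage was called for none of the 5 in crowns at 42 d (1.82% of isoforms called), leaves at 0 h (1.23%) or leaves at 42 d (0.823%), with 1, 1 and 0 of the 5 at an unadjusted p under 0.05 in edgeR. In crowns at 42 d, t1 was called without ‘Alta’ crown 42 d replicate 2 (log2 fold difference 0.71, edgeR FDR = 0.0328).

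Crowns had a lower level of the transcript than leaves in 3 of the 4 comparisons, and not in untreated ‘Alta’. Values are crown over leaf. In ‘NCGR1363’ the log2 fold difference was -1.45 ± 0.20 at 42 d (2.73-fold lower, edgeR FDR = 0.00124) and -1.42 ± 0.10 at 0 h (2.67-fold lower, edgeR FDR = 1.21e-05). In ‘Alta’ at 42 d it was -1.76 ± 0.35 (3.38-fold lower, edgeR FDR = 0.00718), with 82.0 and 129 CPM in crowns, against 230.0, 412 and 433 CPM in leaves. This call was lost with the library labelled ‘Alta’ crown 42 d replicate 3 kept (-1.10, edgeR FDR = 0.370). That fit called 1 of 18756 genes, so the loss is not particular to this gene. In ‘Alta’ at 0 h it was 0.20 ± 0.08 (interval 0.01 to 0.38) and just missed the threshold (edgeR FDR = 0.0519), although every crown library lay above every leaf library. It passed without ‘Alta’ crown 0 h replicate 1 (0.24, edgeR FDR = 0.0406) or leaf 0 h replicate 1 (0.23, edgeR FDR = 0.0256). The shares of all genes called were 55.5% in ‘NCGR1363’ at 42 d, 65.7% in ‘NCGR1363’ at 0 h, 44.8% in ‘Alta’ at 42 d and 73.1% in ‘Alta’ at 0 h.

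By isoform, t1 and the shorter isoforms parted in untreated ‘Alta’. In untreated ‘NCGR1363’ t1 and t2 also had opposite signs, as given below. The t1 isoform had 369, 403 and 377 CPM in ‘Alta’ crowns at 0 h, against 358, 365 and 326 CPM in leaves (log2 fold difference 0.01 ± 0.06, edgeR FDR = 0.956). In contrast t2, t3 and t4 were higher in crowns, by 2.13 ± 0.57, 2.03 ± 0.33 and 1.14 ± 0.29 (edgeR FDR = 0.0269, 0.00343 and 0.0214), where 40% of isoform rows were called. The t3 call held with each library left out. That of t2 was lost without any one of the 3 crown libraries or leaf 0 h replicate 2 (edgeR FDR = 0.0634 to 0.0836), and that of t4 without crown 0 h replicate 2 (edgeR FDR = 0.0633). Usage of t2 was higher in crowns by 1.90 (edgeR FDR = 0.00182), with 10.6, 10.4 and 10.5% of the gene's counts in crowns, against 4.99, 2.31 and 0.850% in leaves. That call held with each of the 6 libraries left out, in a comparison that called 2.1% of isoforms. Usage of t3 was not called (1.80, edgeR FDR = 0.125), but was without leaf 0 h replicate 1 or 3 (edgeR FDR = 0.0286 and 0.0342).

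In the other tissue comparisons the isoforms called were all lower in crowns. In ‘NCGR1363’ at 42 d all 5 were called (log2 fold difference -2.73 to -1.28), beside 28.8% of isoform rows. Of these, t2 was lost in 1 fit over all 8 groups (edgeR FDR = 0.0987), t4 was lost without crown 42 d replicate 1 (edgeR FDR = 0.0509), and t5 without crown 42 d replicate 1, 2 or 3 or leaf 42 d replicate 3 (edgeR FDR = 0.0543 to 0.0752). In ‘NCGR1363’ at 0 h, t1 (-1.40) and t3 (-1.97) were called, beside 35% of rows, and t4 (-1.71, edgeR FDR = 0.0606) and t5 (-2.35, edgeR FDR = 0.0506) missed the threshold narrowly. The t2 isoform had the opposite sign there, higher in crowns, with overlapping groups and no call (1.75 ± 1.30, edgeR FDR = 0.359). Its usage was also higher in crowns, by 3.10, and missed the threshold (edgeR FDR = 0.0827). The t4 isoform was called without crown 0 h replicate 2 or leaf 0 h replicate 1 (edgeR FDR = 0.0389 and 0.0202) and t5 without crown 0 h replicate 1 (edgeR FDR = 0.0447), and both by edgeR's newer method, 1 fit over all 8 groups and DESeq2. In ‘Alta’ at 42 d, t1 to t4 were called (-2.22 to -1.70), beside 18% of rows, and none was with the library labelled replicate 3 kept (edgeR FDR = 0.183 to 0.719 over the 5 isoforms). The fit that kept it called 0 of all 37166 isoform rows, so the loss is not particular to these isoforms. The t4 call held with each library left out. The t1 call was lost without crown 42 d replicate 1 or 2 or leaf 42 d replicate 2 or 3 (edgeR FDR = 0.0878 to 0.178). The t2 call was lost without crown 42 d replicate 1 or leaf 42 d replicate 2 or 3 (edgeR FDR = 0.0608 to 0.0776) and in 1 fit over all 8 groups (edgeR FDR = 0.138), and the t3 call without crown 42 d replicate 1 or leaf 42 d replicate 1, 2 or 3 (edgeR FDR = 0.0802 to 0.107). Usage was called for no isoform of the gene in ‘NCGR1363’ at 42 d (0.592% of isoforms called), ‘NCGR1363’ at 0 h (1.5%) or ‘Alta’ at 42 d (0.381%), with 1, 1 and 0 of the 5 at an unadjusted p under 0.05 in edgeR.

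**Figure D4:**
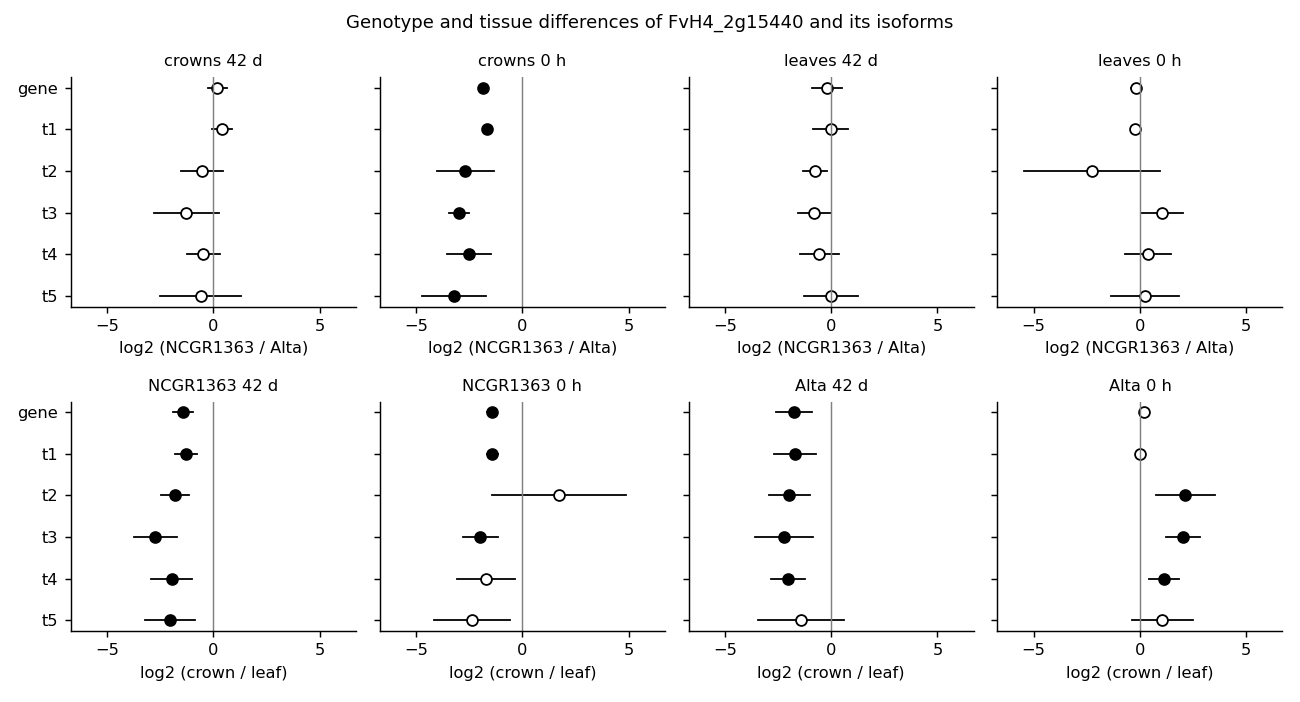
Log2 fold differences of the gene and its isoforms, ‘NCGR1363’ over ‘Alta’ in the upper row and crown over leaf in the lower row. Points are edgeR estimates with 95% intervals, and filled points passed an FDR of 0.05. Between the parents only crowns at 0 h hold filled points, and in ‘Alta’ at 0 h t1 sits at 0.01 while t2, t3 and t4 are filled above 0.

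The cold responses of the parents were compared directly by an interaction, the response of ‘NCGR1363’ minus that of ‘Alta’. In crowns it was 2.02 ± 0.21 (interval 1.56 to 2.48, edgeR FDR = 2.98e-05), and 35.9% of all genes were called. It held with each of the 11 libraries left out (1.73 to 2.38), and was 1.34 and not called with the library labelled ‘Alta’ crown 42 d replicate 3 kept (edgeR FDR = 0.169). With that library kept, 6.41% of all genes were called. Among the isoforms the legacy edgeR test called t1 in crowns (2.06 ± 0.21, edgeR FDR = 0.000315), where 12.1% of isoform rows were. The other 4 isoforms had interactions of 1.69 to 2.58 and missed its threshold (edgeR FDR = 0.0512 to 0.141), while DESeq2 called all 5 (FDR of t2 to t5 0.0344, 0.0374, 0.0045 and 0.0442) and edgeR's newer method also called t4 (FDR = 0.0377). The share of 12.1% is that of the legacy test. No share of all rows is given for DESeq2 or the newer method, so their counts cannot be set against one. The call was reached without ‘NCGR1363’ crown 0 h replicate 3 for t2 (2.76, edgeR FDR = 0.0454), without ‘Alta’ crown 42 d replicate 2 for t3 (2.68, edgeR FDR = 0.0135), and without ‘NCGR1363’ crown 0 h replicate 2 for t4 (2.58, edgeR FDR = 0.00862). In leaves the interaction of the gene was 0.09 ± 0.33 (interval -0.63 to 0.82, edgeR FDR = 0.881, 17.7% of genes called), and was negative without ‘Alta’ leaf 42 d replicate 1 (-0.14) or ‘NCGR1363’ leaf 42 d replicate 2 (-0.17). Whether the rise of t3 in ‘Alta’ leaves differed from the response in ‘NCGR1363’ leaves depended on the test, since its leaf interaction of -1.84 ± 0.52 missed the threshold in edgeR (interval -3.00 to -0.68, edgeR FDR = 0.0890, 3.84% of isoform rows called) and passed it in DESeq2 (-1.88, FDR = 0.0131). It passed without ‘NCGR1363’ leaf 42 d replicate 2 (-2.12, edgeR FDR = 0.0454). No other isoform was called in leaves by either tool, and t3 was the 1 isoform with an unadjusted p under 0.05.

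Crowns and leaves were compared in the same way, as the crown response minus that of leaves. In ‘NCGR1363’ the interaction of the gene was -0.07 ± 0.22 (interval -0.56 to 0.42, edgeR FDR = 0.868), where 20.8% of genes were called, and it was 0.16 without leaf 42 d replicate 2. In ‘Alta’ it was -2.03 ± 0.35 (interval -2.80 to -1.27, edgeR FDR = 0.00161), where 28.9% of genes were called. The ‘Alta’ call held with each of the 11 libraries left out and was lost with the library labelled crown 42 d replicate 3 kept (-1.34, edgeR FDR = 0.151). With that library kept, 10.3% of all genes were called. In ‘Alta’, t1 to t4 were called at -1.78, -4.15, -4.32 and -3.23 (edgeR FDR = 0.0229, 0.0159, 0.00485 and 0.00312), beside 8.74% of isoform rows. The calls of t3 and t4 also held with that library kept (-4.10 and -3.22, edgeR FDR = 0.0138 and 0.00686) and with each of the others left out. The t1 call was lost without crown 0 h replicate 2 or 3 or crown 42 d replicate 1 (edgeR FDR = 0.0538, 0.0513 and 0.0916), and the t2 call without crown 42 d replicate 1 (edgeR FDR = 0.0720). In ‘NCGR1363’ none was called by the legacy edgeR test, beside 5.68% of isoform rows, or by DESeq2. The t2 isoform alone had an unadjusted p under 0.05 (-3.61 ± 1.34, edgeR FDR = 0.169) and was called by edgeR's newer method (-3.55, FDR = 0.0452).

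FvH4_2g15450 is named as a PIP2 homolog by the study, while the files annotate it as uncharacterized. It had 66.0, 71.2 and 64.6 CPM in ‘NCGR1363’ crowns at 42 d, against 80.6, 87.0 and 84.5 CPM at 0 h, and fell by 0.32 on the log2 scale (edgeR FDR = 0.00255). In ‘Alta’ crowns it had 87.0 and 104 CPM at 42 d, against 120.2, 112 and 128 CPM at 0 h, a log2 fold change of -0.32 that missed the threshold (edgeR FDR = 0.0552). Its crowns at 0 h differed between the parents by -0.53 (edgeR FDR = 5.08e-05), in the same direction as FvH4_2g15440, and its crown interaction was 0.02 (edgeR FDR = 0.951). FvH4_2g15441, next in identifier order and annotated as the pre-mRNA splicing factor syf2, fell in crowns of both parents, by 0.42 in ‘NCGR1363’ (edgeR FDR = 0.000199) and by 0.58 in ‘Alta’ (edgeR FDR = 0.00344). Its crown interaction was 0.17 (edgeR FDR = 0.219). Whether either gene overlaps FvH4_2g15440 on the genome was not tested.

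Of the 10 genes nearest in identifier order, 5 on each side, 8 were tested for the ‘Alta’ crown response, with 0 higher and 2 lower at 42 d and a median log2 fold change of -0.45, against a median of -0.00 over all genes. In ‘NCGR1363’ crowns 6 were tested, with 0 higher and 4 lower (median -0.37). The crown interaction was called for 1 of 8 tested (median 0.05, against 0.03 over all genes). At 0 h in crowns 1 neighbour was higher and 5 were lower in ‘NCGR1363’ than in ‘Alta’, of 8 tested (median -0.51, against 0.00 over all genes). Of all genes tested, 30% were called lower in ‘Alta’ crowns at 42 d, 29.8% in ‘NCGR1363’ crowns at 42 d and 32.2% in ‘NCGR1363’ crowns at 0 h, and 35.9% were called for the crown interaction.

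A list of 8 interval genes that by annotation bear on water and osmotic balance was followed as well. FvH4_2g14100 (an abscisic acid 8'-hydroxylase, the type of enzyme that breaks down the drought hormone abscisic acid) and FvH4_2g18610 (annotated as cold and drought-regulated) had at most 0.0706 and 0 CPM, and the dehydrin FvH4_2g16030 reached 0.5 CPM in fewer than 2 libraries of every comparison, so none of these 3 was tested. Of those tested, 3 of 5 rose and 1 fell in ‘Alta’ crowns (median 1.18), and 3 of 4 rose and 1 fell in ‘Alta’ leaves (median 1.76). In ‘NCGR1363’, 2 of 5 rose and 2 fell in crowns (median 0.60), and 1 of 4 rose and 1 fell in leaves (median 0.47). Over all genes 57.7% were called in ‘Alta’ crowns, 55.8% in ‘Alta’ leaves, 58.9% in ‘NCGR1363’ crowns and 31.4% in ‘NCGR1363’ leaves, with medians between -0.00 and 0.01. By direction, in the same order, 27.7, 27.4, 29.1 and 17% were called higher, and 30, 28.4, 29.8 and 14.3% lower. The sugar transporter FvH4_2g14860 (SWEET1-like) rose by 3.19 in ‘Alta’ crowns (edgeR FDR = 2.89e-05), where FvH4_2g15440 fell. FvH4_2g18440 (AFP2-like, of a family that dampens abscisic acid signalling in Arabidopsis) rose by 4.16 there (edgeR FDR = 0.000625). FvH4_2g15060, of the Casparian strip membrane protein family, which guides the wall barrier of the root endodermis, fell by 2.13 (edgeR FDR = 0.00830).

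The study named 13 other stress candidates of the interval, which it picked with these same samples in hand, so their counts are no independent evidence, and 2 of which are also in the list above. In ‘Alta’ crowns 4 rose and 5 fell of 13 tested (median -0.03), and in ‘NCGR1363’ crowns 3 rose and 5 fell of 12 (median -0.09). In ‘Alta’ leaves 6 rose and 2 fell of 11 (median 1.68), and in ‘NCGR1363’ leaves 3 rose and 2 fell of 10 (median 0.21). The shares of all genes called were 57.7, 58.9, 55.8 and 31.4% in these comparisons, and their medians lay between -0.00 and 0.01. Called higher were 27.7, 29.1, 27.4 and 17% of all genes, and called lower 30, 29.8, 28.4 and 14.3%. FvH4_2g13680 (BYPASS1-like) was among those that fell in ‘Alta’ crowns (-2.91, edgeR FDR = 3.20e-05) and was not called in ‘NCGR1363’ crowns (-0.04, edgeR FDR = 0.760). FvH4_2g15840 (N-acetylserotonin O-methyltransferase, of melatonin synthesis) fell by 3.48 in ‘NCGR1363’ crowns (edgeR FDR = 3.65e-06), and in ‘Alta’ crowns it had 0 CPM in both libraries at 42 d, against 8.97 to 9.97 CPM at 0 h (edgeR FDR = 9.98e-05).

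The genes with the pattern most like that of FvH4_2g15440 were ranked by Pearson's r of log2(CPM + 0.5) over 23 libraries, among 17930 genes with a mean of at least 1 CPM. FvH4_7g30220 (r = 0.94, Spearman's rho = 0.93) and FvH4_7g00200 (r = 0.94, rho = 0.76) came first. Among 455 interval genes the first 3 were FvH4_2g18070 (U-box domain-containing protein 9, r = 0.84), FvH4_2g16000 (L-ascorbate oxidase homolog, r = 0.83) and FvH4_2g18040 (serine/threonine-protein kinase OXI1, r = 0.82), at ranks 45, 57 and 66 of all genes. FvH4_2g15450 had an r of 0.60 and FvH4_2g15441 an r of -0.16. The libraries are shared by all these values and fall into groups, so the correlations describe likeness over these 8 groups and carry no test. FvH4_2g16000, of the family of enzymes that oxidise ascorbate in the cell wall, fell in ‘Alta’ crowns by 4.70 (edgeR FDR = 0.00385) and was not called in ‘NCGR1363’ crowns (-0.12, edgeR FDR = 0.750). In ‘Alta’ leaves, where FvH4_2g15440 was not called, it fell by 2.51 (edgeR FDR = 0.000368).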

How the data were processed

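Per the labels and the study's methods, the authors extracted total RNA, made strand-specific TruSeq libraries, trimmed the reads and mapped them with RSEM and Bowtie2 to the predicted mRNAs of the F. vesca annotation v4.0.a2, and deposited expected counts per gene and per isoform without normalization. All values of both tables were whole numbers. Every value column matched a sample.

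Libraries were grouped by their titles. The gene, its isoforms, the gene lists and the tests were chosen with earlier results of these data known. The genes named were FvH4_2g15440 and its isoforms, FvH4_2g15441 and FvH4_2g15450, the 3 interval genes and the 2 genes of the whole table most like it over 23 libraries, and list members as examples. Rows with a CPM of 0.5 or more in 2 libraries of a comparison were tested with the quasi-likelihood F-test of edgeR 4.0.16 (legacy form, TMM, R 4.3.3), with Benjamini-Hochberg adjustment over all rows of the table and a threshold of 0.05. There were 16 comparisons, each fitted on its own libraries. Usage was tested in 12 comparisons with diffSpliceDGE on a quasi-likelihood fit, which gives no standard error. DESeq2 1.42.0 was run beside it. All shares of rows called are those of the legacy edgeR fits, and none is given for DESeq2 or edgeR's newer method. The fold change test was checked on simulated gene counts and the usage test on simulated isoform counts, with known answers. The fold change test stayed near its threshold, while the usage test made more false calls than its threshold allows. The fold change test of isoforms was not simulated. The simulated counts had the same dispersion in every row and no error from dividing reads among isoforms. Levels are CPM with TMM factors over all 24 libraries, which were 12818719 to 18487934 counts deep. For crowns against leaves, CPM depends on the scaling, as the closing section shows. Alternatives were another scaling, test or filter, other sets of libraries, a block on the replicate number and leaving out each library. No genome was used, so no position or sequence is given.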

Additional observations from a re-analysis of the deposited data

Results flagged for a closer look

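Differences between the cold responses of groups, tested as interactions with edgeR's quasi-likelihood F-test, were found for 7 results. The genotype by cold interaction in crowns (the ‘NCGR1363’ response minus that of ‘Alta’) was 2.02 for FvH4_2g15440 and 2.06 for isoform t1. The tissue by cold interaction in ‘Alta’ (the crown response minus that of leaves) was -2.03 for FvH4_2g15440, -1.78 for isoform t1, -4.15 for isoform t2, -4.32 for isoform t3 and -3.23 for isoform t4. Each of them uses the 2 libraries of ‘Alta’ crowns at 42 d that remained after the library labelled replicate 3 was set apart. With that library kept, the calls of t3 and t4 held (edgeR FDR = 0.0138 and 0.00686) and those of the other 5 results were lost. Without it, 35.9% of genes and 12.1% of isoform rows were called for the crown interaction, and 28.9 and 8.74% for that in ‘Alta’. The interactions in leaves and in ‘NCGR1363’ were called for neither the gene nor an isoform. Most of the gene's counts are those of t1, so the gene and t1 are not separate results.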

How the results depend on the processing

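Of the 16 gene-level results, none that was called changed direction under any alternative run. Keeping the library labelled ‘Alta’ crown 42 d replicate 3 ended 4 gene-level calls: the cold response of ‘Alta’ crowns (-1.46), crown against leaf in ‘Alta’ at 42 d (-1.10), the genotype by cold interaction in crowns (1.34) and the tissue by cold interaction in ‘Alta’ (-1.34). In the same order, those fits called 7.67, 0.00533, 6.41 and 10.3% of all genes. Crown against leaf in ‘Alta’ at 0 h became called with DESeq2's size factors in edgeR (0.22), the DESeq2 Wald test (0.22), no filter (0.22) and the newer quasi-likelihood method (0.20), and ran from 0.14 to 0.24 with each library left out, called in 2 of 6 fits. The genotype difference in crowns at 42 d ran from -0.11 to 0.54 with each library left out, called in 1 of 5 fits, in which a lone ‘Alta’ library was assumed to vary like the other group. Scaling by total counts only, in place of TMM, changed the mean level to 549 CPM in ‘Alta’ crowns and 299 CPM in ‘Alta’ leaves at 0 h, to 142 CPM in ‘NCGR1363’ crowns at 42 d and 157 CPM at 0 h, and to 273 CPM in ‘NCGR1363’ leaves at 0 h, so crown to leaf ratios depend on the scaling. The numbers of replicates are shared by the groups but nothing in the labels says what links them, and in no comparison with 3 pairs did every pair of same-numbered libraries deviate together at an r over 0.1. With 2 pairs, both did in the genotype difference in crowns at 42 d (r of 0.114 and 0.209). Both also did in crown against leaf in ‘Alta’ at 42 d (0.159 in each). In the cold response of ‘Alta’ crowns the 2 pairs had 0.0874 and 0.152. Among comparisons with 3 pairs, single pairs reached higher values. The pairs ran from -0.255 to 0.530 in the cold response of ‘NCGR1363’ leaves, and from -0.0633 to 0.495 in the genotype difference in leaves at 42 d. A replicate block changed no gene-level call (cold response of ‘Alta’ crowns -2.16, edgeR FDR = 0.00111), and ended 7 isoform calls, added 2 and ended both usage calls of ‘Alta’ leaves (edgeR FDR = 0.0961 for t2 and 0.153 for t3), as did leaving out the filter (0.0509 and 0.0625). Over 80 isoform results the DESeq2 Wald test added 11 calls and ended none, edgeR's newer method added 6 and ended none, and 1 fit over the libraries of all 8 groups added 3 and ended 4 (t2 and t4 in the ‘Alta’ crown cold response, t2 in crown against leaf at 42 d in each parent).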
